A study of Mus musculus with 9 samples.

Results

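The guanylate-binding proteins (GBPs) and immunity-related GTPases (IRGs) were followed through the RNA sequencing of mouse peritoneal macrophages with lost or inhibited SHP2. The group held 10 genes, named by symbol: *Gbp2*, *Gbp3*, *Gbp5*, *Gbp7*, *Igtp*, *Iigp1*, *Irgm1*, *Irgm2*, *Ifi47* and *Tgtp2*. All 10 were found among the 54059 genes of the deposited table. Of the 10, 8 had a mean FPKM (fragments scaled by transcript length and by library size) of at least 1 and were among the 11450 genes tested, and *Ifi47* and *Tgtp2* stayed below that level.

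GBPs and IRGs are large GTPases of cell-autonomous immunity. Interferons switch on their genes in part through IRF1, and in macrophages they are among the most strongly induced interferon-gamma targets. Several GBPs carry a C-terminal prenyl anchor and coat pathogen vacuoles and cytosolic bacteria, where they aid membrane rupture and caspase-11 activation. The IRGs divide into regulators that guard the cell's own membranes (*Irgm1*, *Irgm2*, *Igtp*) and effectors that are loaded onto the vacuole (*Iigp1*, *Ifi47*, *Tgtp2*), and this loading uses part of the autophagy machinery.

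The libraries came from C57BL/6 mice that the labels give as 8 weeks old. Cells were washed from the peritoneum 3 days after an injection of starch broth, and the adherent macrophages were cultured. The WT group held 3 libraries of wild-type macrophages, and the M-Shp2-/- group held 3 libraries of macrophages from mice in which *Lyz2*-cre, active in monocytes, macrophages and granulocytes, removes floxed *Shp2* (genotype SHP2lyz2-/- in the labels). The SHP099 group held 3 libraries of wild-type macrophages pretreated for 2 h with 10 µM SHP099, an allosteric inhibitor of SHP2. By the study's methods all 9 cultures received 10 µg/ml imiquimod (IMQ), an agonist of TLR7, for 4 h, so no unstimulated level was measured. The labels do not say whether libraries of a group came from separate mice, so p-values measure the spread between these libraries.

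*Ptpn11*, which encodes SHP2, stood at 45.8, 44.0 and 40.0 FPKM in WT, at 18.6, 17.8 and 18.9 in M-Shp2-/- and at 43.0, 42.1 and 39.6 in SHP099. Libraries held 39841813 to 50979545 reads behind the FPKM scale. Values of the 11450 genes correlated at 0.954 to 0.992 between libraries of a group. WT replicate 3 stood apart for the genes described here: it was at least 2-fold above the mean of the other WT libraries for 7 of the 8 tested members on the log2(FPKM + 1) scale, against 1.38% of all genes tested. The members' results against WT are therefore given with and without it. Of 11 macrophage markers, 11 had a mean FPKM of at least 1, and their sum, mostly *Lyz2*, was 11660 to 14460 FPKM in WT, 8585 to 9374 in M-Shp2-/- and 12640 to 14730 in SHP099. Of these, *Lyz2*, whose locus carries the cre, had a log2 fold change of -0.76 in M-Shp2-/- against WT. In all, 8 of the 11 had lower values, among them *Mertk* (-0.97), *Cd14* (-0.68), *Msr1* (-0.52), *Itgam* (-0.21) and *Adgre1* (-0.11). The 3 with higher values were *Csf1r* (0.44), *Cd68* (0.13) and *Spi1* (0.01). The cultures also held RNA of other cells: summed stromal and mesothelial markers were 41.4 to 310.1 FPKM in WT, 52.8 to 594.7 in M-Shp2-/- and 103 to 367 in SHP099. B cell markers summed to 11.5 to 47.5 FPKM in WT, 19.3 to 178 in M-Shp2-/- and 13.9 to 27.8 in SHP099, with 178 in M-Shp2-/- replicate 3. Markers of dendritic cells (3.87 to 6.28 in WT, 3.67 to 7.63 in M-Shp2-/- and 1.03 to 1.498 in SHP099) and of mast cells and eosinophils (1.96 to 5.39, 0.759 to 2.08 and 0.291 to 0.625) were low, and both sums were lower in all SHP099 libraries than in all others. Of the 7 dendritic cell genes summed, without *Bst2*, only 1, *Ccr7*, had a mean FPKM of at least 1. Of the 8 mast cell and eosinophil genes 0 did. The part of these cells in the results below was not tested. In bulk RNA, fewer cells of a type and less RNA per cell cannot be told apart.

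The members lie in clusters. In GRCm38, *Gbp5* (chr3:142493978-142522344), *Gbp7* (chr3:142530342-142550149), *Gbp3* (chr3:142560026-142573209) and *Gbp2* (chr3:142620602-142638008) follow each other on the plus strand of chromosome 3. *Irgm1* (chr11:48861968-48871683, minus), *Tgtp2* (chr11:49057194-49064206, minus), *Ifi47* (chr11:49076587-49096974, plus), *Igtp* (chr11:58199556-58207591, plus) and *Irgm2* (chr11:58199618-58222782, plus) lie on chromosome 11, where the first 3 and the last 2 form separate clusters, and *Iigp1* lies outside all of these. *Igtp* and *Irgm2* overlap on one strand over 8.0% of the exon bases of *Igtp*, and *Gbp7* shares 11.3% of its exon bases with *Gm43802*. *Tgtp2* shares 76.8% of its 100-base words with *Tgtp1* and *Gm12185*, so reads may have been split between these genes and its values are uncertain. *Ifi47* overlaps *Olfr56* on its own strand and *Gm12188* on the other, and strand use in counting is not given in the sources used here.

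Since the members share an inducer, their promoters were read from RefSeq (GRCm38.p6), from 250 bases before to 50 bases after each start. Of the 10 members, 9 matched a window, and *Iigp1* was not matched. Windows were searched on both strands for the core of the interferon-stimulated response element (ISRE), GAAA and GAAA with any 2 bases between them, bound by IRF proteins, and for the gamma-activated site (GAS), TTCNNNGAA, through which interferon-gamma acts. An ISRE core lay in 8 of the 9 members, against 3.44% of 32851 windows of all genes. A GAS lay in 5 members, against 8.30% of windows, and the same 5 held both motifs, against 0.45%. *Ifi47* held neither in this window. The stretches that hold the ISRE cores are shown 5′ to 3′ along the gene, motifs in capitals, because they show which members share an arrangement and which do not.
Gbp2: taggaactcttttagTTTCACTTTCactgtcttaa
Gbp3: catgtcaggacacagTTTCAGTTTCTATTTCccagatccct
Gbp5: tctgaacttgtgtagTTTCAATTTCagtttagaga
Gbp7: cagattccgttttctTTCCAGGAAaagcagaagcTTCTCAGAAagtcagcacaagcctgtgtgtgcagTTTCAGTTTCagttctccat
Igtp: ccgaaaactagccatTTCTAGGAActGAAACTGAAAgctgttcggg
Irgm2: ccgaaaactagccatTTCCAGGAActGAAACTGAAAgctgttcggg
Tgtp2: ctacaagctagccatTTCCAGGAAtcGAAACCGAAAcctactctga
Irgm1: ctagcctgtttcaaGAAATAGAAACCGAAA

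The stretches are at chr3:142620589-142620623 (*Gbp2*), chr3:142559984-142560024 (*Gbp3*), chr3:142496754-142496788 (*Gbp5*), chr3:142530215-142530302 (*Gbp7*), chr11:58199496-58199541 (*Igtp*), chr11:58214887-58214932 (*Irgm2*), chr11:49064263-49064308 (*Tgtp2*, minus strand) and chr11:48871435-48871464 (*Irgm1*, minus strand). In *Igtp*, *Irgm2* and *Tgtp2* a GAS is followed 2 bases later by an ISRE core on the gene's strand, whereas in the GBP genes the ISRE core lies on the opposite strand. *Gbp3* and *Irgm1* each hold a pair of ISRE cores that share bases, and no GAS overlaps an ISRE core. *Gbp5* holds its GAS motifs 245 and 52 bases before its start, outside the stretch shown. The ISRE core begins 59 bases before the start in *Gbp2*, 53 in *Gbp7*, 34 in *Igtp* and 165 in *Gbp5*. By GENCODE M21, 22 bases of the *Gbp2* stretch and all 30 of the *Irgm1* stretch lie in annotated exons and the other stretches in none. The starts are those of RefSeq and differ from the ends of some gene spans given above. The *Gbp5*, *Irgm1* and *Irgm2* stretches, and part of the *Gbp2* stretch, lie inside those spans. A match describes these letters only, and binding was not measured.

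*Gbp2*, a prenylated GBP that marks vacuoles and bacteria, was the most abundant member. It stood at 169, 174 and 419.7 FPKM in WT, at 113, 151 and 178 in M-Shp2-/- and at 285, 194 and 402 in SHP099. The M-Shp2-/- libraries lay below all SHP099 libraries and overlapped WT through M-Shp2-/- replicate 3. *Gbp5*, which promotes inflammasome assembly, stood at 97.0, 81.5 and 284 FPKM in WT, at 49.1, 67.8 and 59.1 in M-Shp2-/- and at 103, 69.0 and 144 in SHP099. *Gbp3*, encoded between *Gbp7* and *Gbp2*, stood at 56.6, 55.7 and 196 FPKM in WT, at 32.9, 45.2 and 43.2 in M-Shp2-/- and at 84.0, 50.8 and 106 in SHP099. For both genes every M-Shp2-/- library lay below every WT and every SHP099 library. *Gbp7*, linked to oxidative defence, stood at 30.3, 28.0 and 54.9 FPKM in WT, at 15.1, 20.2 and 14.0 in M-Shp2-/- and at 26.1, 12.2 and 27.3 in SHP099. It was the only tested member for which the WT libraries lay above all libraries of both other groups.

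The regulators of the IRG system were expressed at lower levels. *Irgm1*, needed for control of vacuolar bacteria and for autophagy, stood at 9.01, 14.5 and 46.4 FPKM in WT, at 6.42, 7.27 and 10.2 in M-Shp2-/- and at 14.1, 6.98 and 20.4 in SHP099, and M-Shp2-/- overlapped both other groups. *Irgm2*, a regulator of Golgi and endosomal membranes, stood at 6.63, 11.9 and 33.5 FPKM in WT, at 4.18, 4.34 and 6.15 in M-Shp2-/- and at 8.58, 5.11 and 12.2 in SHP099. *Igtp*, found on the endoplasmic reticulum and lipid droplets, stood at 5.76, 9.89 and 32.1 FPKM in WT, at 2.62, 4.34 and 4.69 in M-Shp2-/- and at 7.54, 4.70 and 11.7 in SHP099. For *Irgm2* and *Igtp* the M-Shp2-/- libraries lay below all WT libraries, and those of *Igtp* lay narrowly below all SHP099 libraries as well.

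The effectors were low and the most uneven. *Iigp1* stood at 0.521, 2.80 and 18.3 FPKM in WT, at 0.290, 0.553 and 1.11 in M-Shp2-/- and at 4.46, 0.820 and 7.35 in SHP099. Its highest library was 63.1 times its lowest, against 3.71 times for *Gbp2*, and its groups overlapped in every comparison. *Ifi47* stood at 0.411, 0.626 and 1.43 FPKM in WT, at 0.176, 0.0739 and 0.183 in M-Shp2-/- and at 0.554, 0.0381 and 0.693 in SHP099. These values came from 2 to 80 reads per library. The M-Shp2-/- libraries lay below all WT libraries for this gene, and SHP099 replicate 2, with 2 reads, was under the detection floor of 3 reads. *Tgtp2* stood at 0.0709, 0.0370 and 0.355 FPKM in WT, at 0, 0 and 0.0828 in M-Shp2-/- and at 0.115, 0 and 0.430 in SHP099, from at most 30 reads. A count of 0 allowed up to 0.0437, 0.0459 and 0.0474 FPKM in the 3 libraries without reads, a limit that covers counting error alone. No fold change was read from *Tgtp2*.

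**Figure D1:**
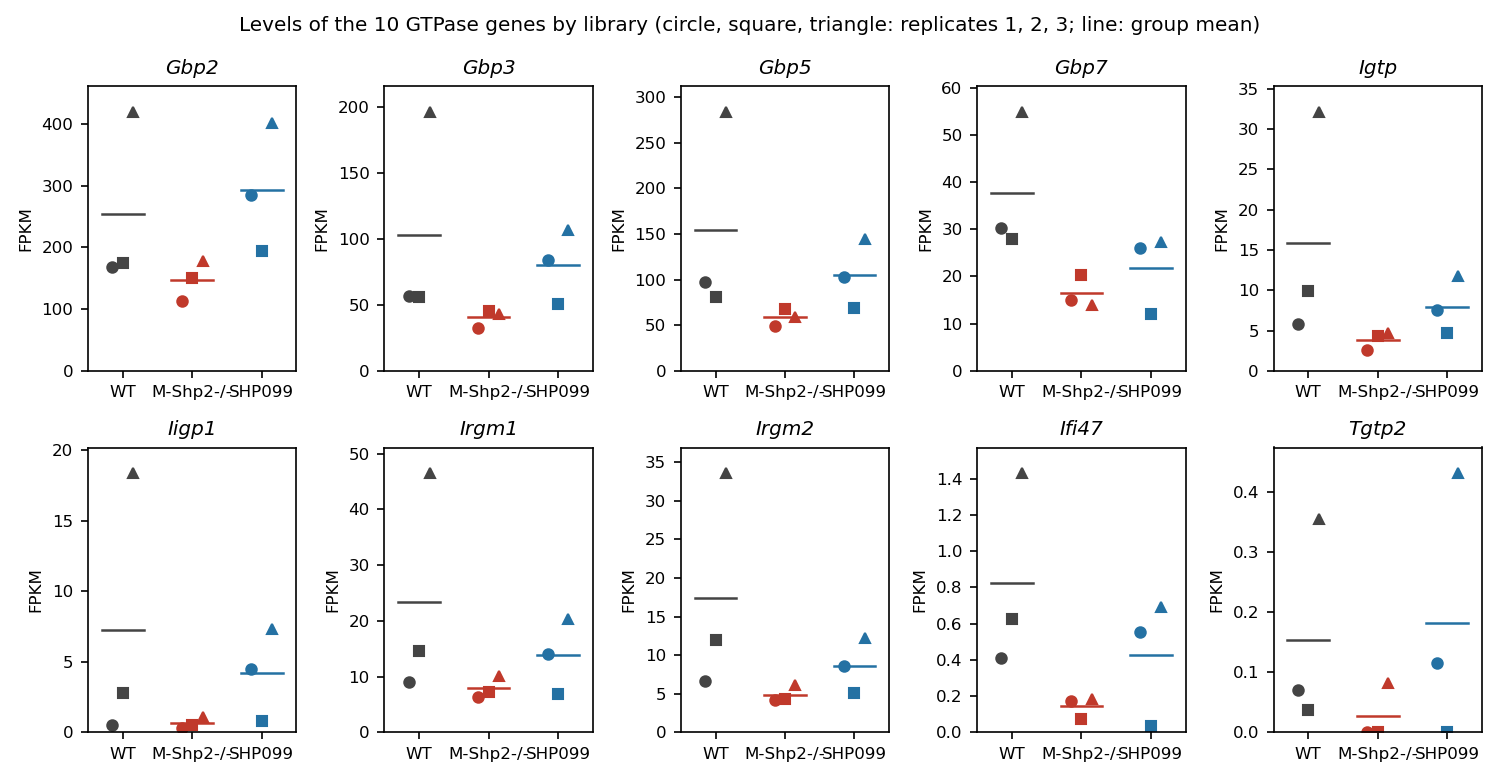
FPKM (y axis, linear, from 0, with its own scale for each gene) of the 10 genes in the 3 WT, 3 M-Shp2-/- and 3 SHP099 libraries. Circles, squares and triangles are replicates 1, 2 and 3, and lines are group means. Whether same-numbered replicates are paired between groups is not given in the sources used here. WT replicate 3 is the highest library in 9 of the 10 genes, and the M-Shp2-/- mean is the lowest of the 3 group means in each gene.

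The order of the members was nearly the same in all libraries. By the mean over 9 libraries it ran from *Gbp2* (232 FPKM) through *Gbp5* (106), *Gbp3* (74.5), *Gbp7* (25.3), *Irgm1* (15.0), *Irgm2* (10.3), *Igtp* (9.27), *Iigp1* (4.03) and *Ifi47* (0.465) to *Tgtp2* (0.121). Each gene was above the next in 9 of 9 libraries, except that *Irgm2* was above *Igtp* in 8 of 9, with a ratio of 0.998 to 1.60. The 4 GBPs summed to 210.2 to 954 FPKM and the 6 IRGs to 13.7 to 132, and the IRG share of the total ran from 5.14% in SHP099 replicate 2 to 12.2% in WT replicate 3. The members varied together: each tested member correlated with the mean of the other tested members at a Pearson's r of 0.84 (*Gbp7*) to 0.98 (*Gbp3*, *Igtp*, *Irgm1*) across 9 libraries. Without the libraries farthest from the median, WT replicate 3 and SHP099 replicate 3, r was 0.64 to 0.92. These libraries share a scale and groups, so r is a description.

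Ratios between 5 pairs of members were chosen after their values were seen and are given as a description, with no share of other gene pairs to set beside them. The *Gbp2* to *Gbp7* ratio was 5.59, 6.22 and 7.65 in WT, 7.48, 7.45 and 12.7 in M-Shp2-/- and 10.9, 16.0 and 14.7 in SHP099. The *Gbp3* to *Gbp5* ratio was 0.583, 0.683 and 0.691 in WT, 0.669, 0.668 and 0.731 in M-Shp2-/- and 0.819, 0.736 and 0.737 in SHP099. For both ratios every SHP099 library lay above every WT library, and M-Shp2-/- overlapped WT. The *Gbp2* to *Gbp5* ratio was 1.74, 2.14 and 1.48 in WT, 2.31, 2.22 and 3.01 in M-Shp2-/- and 2.78, 2.81 and 2.79 in SHP099, so that here the libraries of both groups lay above all WT libraries. The *Irgm1* to *Irgm2* ratio was 1.22 to 1.39 in WT, and it lay above that in M-Shp2-/- (1.53 to 1.68) and overlapped it in SHP099 (1.36 to 1.67). The *Irgm2* to *Igtp* ratio overlapped in every comparison. With 3 libraries against 3, an exact two-sided permutation test cannot go below 0.1, and none is given.

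Loss of SHP2 in myeloid cells was compared first, to ask how the GTPase genes differ without the phosphatase. All 8 tested members had lower values in M-Shp2-/- than in WT. Their median log2 fold change was -1.15, beside 0.15 over all genes tested. Of all genes tested, 22.6% were lower. A gene was called in limma when its adjusted p was 0.005 or less and its level differed by 1 or more on the log2 scale. None of the 8 was called (0.00873% of genes called), nor did any reach an adjusted p of 0.05 (0.0873%). At an unadjusted p under 0.05 the count was 4 of 8, against 10.5% of genes. All M-Shp2-/- libraries lay below all WT libraries for 5 of 8 (*Gbp3*, *Gbp5*, *Gbp7*, *Igtp*, *Irgm2*), against 3.07% of genes, and above them for 0 of 8, against 16.0%.

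Among the GBPs, the log2 fold change in M-Shp2-/- against WT was -0.67 for *Gbp2* (SE 0.37), -1.07 for *Gbp3* (SE 0.48), -1.16 for *Gbp5* (SE 0.45) and -1.10 for *Gbp7* (SE 0.27). *Gbp7* had the smallest p of the members by limma, 0.0055, which became 0.424 after Benjamini-Hochberg adjustment. Among the IRGs it was -1.14 for *Irgm1* (SE 0.54), -1.37 for *Irgm2* (SE 0.52), -1.49 for *Igtp* (SE 0.56) and -1.57 for *Iigp1* (SE 0.86). Adjusted p-values of the 8 genes lay between 0.424 and 0.502. The group means of *Gbp5* were 154 ± 113 FPKM in WT and 58.6 ± 9.35 in M-Shp2-/- (SD, n = 3), and those of *Igtp* were 15.9 ± 14.2 and 3.89 ± 1.11, so that most of the spread lay in WT.

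Without WT replicate 3 all 8 members were still lower in M-Shp2-/-, but the median log2 fold change was -0.59, with 0.08 over all genes. At an unadjusted p under 0.05 by limma the count was then 5 of 8, against 7.04% of genes, and all M-Shp2-/- libraries lay below both other WT libraries for 5 of 8, against 5.39% of genes. WT replicate 3 was picked out by its values for these same members. Counts of members without it, here and below, therefore depend on that choice and are a description. Single values then ran from -0.24 for *Gbp2* to -0.84 for *Igtp*, and *Gbp7* kept the most of its difference at -0.81 (adjusted p 0.583 by limma). T and NK cell markers were also highest in this library. Summed over 19 of them (without *Ifng*, given below), of which 3 had a mean FPKM of at least 1, they were 4.32, 12.0 and 30.4 FPKM in WT, 2.81, 2.52 and 14.6 in M-Shp2-/- and 13.8, 11.0 and 13.5 in SHP099, and their part in the result was not tested. The T cell receptor complex gene *Cd3e* was at 0.611 FPKM in WT replicate 3, at 0 in M-Shp2-/- replicate 1 and highest, at 1.07, in SHP099 replicate 1, and *Cd8a* was at 1.63 in WT replicate 3 and at 0 in WT replicate 1. The M-Shp2-/- library with the highest sum, replicate 3, had 316 FPKM of summed GTPases, against 224 and 301 in the other M-Shp2-/- libraries.

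**Figure D2:**
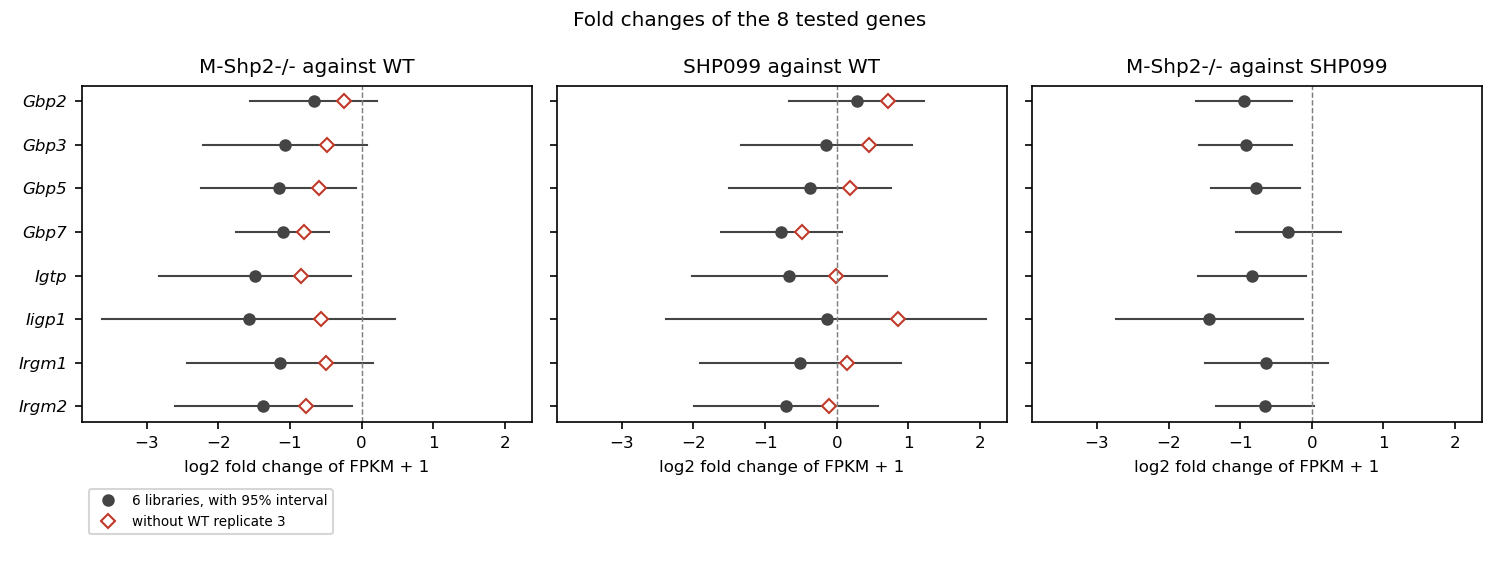
Log2 fold change of FPKM + 1 (x axis) of the 8 tested genes (y axis) in the 3 comparisons; filled points are fits on 6 libraries with their 95% intervals, and open diamonds are fits without WT replicate 3. All points of M-Shp2-/- against WT lie left of 0, from -0.67 to -1.57, and the diamonds move towards 0, whereas for SHP099 against WT the diamonds lie on both sides of 0.

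Inhibition of SHP2 was compared next. Against the same WT libraries, 7 of 8 members had lower values in SHP099-treated macrophages. The median log2 fold change was -0.44, beside 0.13 over all genes, of which 28.8% were lower. None of the 8 was called by limma (0.166% of genes called), none reached an adjusted p of 0.05 (6.96%), and none had an unadjusted p under 0.05 (26.7%). All SHP099 libraries lay below all WT libraries for 1 member, *Gbp7*, against 6.77% of genes, and above them for 0, against 27.9%.

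*Gbp7* also had the lowest log2 fold change, -0.78 (SE 0.36, adjusted p 0.218 by limma). *Gbp2* stood at the other end with 0.28 (SE 0.40, adjusted p 0.701). Between them lay *Irgm2* (-0.71), *Igtp* (-0.66), *Irgm1* (-0.51), *Gbp5* (-0.38), *Gbp3* (-0.15) and *Iigp1* (-0.14). The 95% intervals of all 8 spanned 0, and that of *Iigp1* ran from -2.38 to 2.09, so neither direction was shown at this spread. Without WT replicate 3 the median turned to 0.16 and 3 of 8 were lower. All SHP099 libraries then lay below both other WT libraries for 1 member, *Gbp7*, against 16.3% of genes, and above them for 1, *Gbp2*, against 32.1%, and 1 of 8 had an unadjusted p under 0.05, against 29.9%. *Gbp2* was then 0.71 (adjusted p 0.158), *Gbp3* 0.45, *Gbp5* 0.18, *Irgm1* 0.14 and *Iigp1* 0.86, while *Gbp7* stayed below WT at -0.48. SHP099 replicate 2 was the low library of its group for all 10 genes, and without it the median was -0.11.

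M-Shp2-/- was then set directly against SHP099, a comparison that does not use the WT libraries. All 8 tested members had lower values in M-Shp2-/-, with a median log2 fold change of -0.81 beside 0.02 over all genes, of which 46.8% were lower. None was called by limma at either threshold (0.0% of genes called, and 0.0699% at an adjusted p of 0.05). At an unadjusted p under 0.05 the count was 5 of 8, against 12.6% of genes. All M-Shp2-/- libraries lay below all SHP099 libraries for 4 of 8 (*Gbp2*, *Gbp3*, *Gbp5*, *Igtp*), against 9.76% of genes, and above them for 0 of 8, against 7.90%.

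In this comparison the log2 fold change was -0.95 for *Gbp2* (SE 0.28, adjusted p 0.320 by limma), -0.92 for *Gbp3* (SE 0.27, 0.315) and -0.78 for *Gbp5* (SE 0.26, 0.345). *Gbp7*, the GBP that was low in both groups, had -0.33 (SE 0.31). *Iigp1* had the largest difference, -1.43 (SE 0.54), followed among the IRGs by *Igtp* (-0.83), *Irgm2* (-0.66) and *Irgm1* (-0.64). Leaving out M-Shp2-/- replicate 3 brought *Gbp2* to -1.10 with an adjusted p of 0.0455 by limma, but 19.9% of all genes then passed 0.05. Leaving out SHP099 replicate 3 moved the median to -0.53.

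Dividing by median-of-ratios size factors moved the median of all genes from 0.15 to -0.01 for M-Shp2-/- against WT and from 0.13 to -0.01 for SHP099 against WT. Relative to these medians the members kept their place: their own medians became -1.32 and -0.59, and the number lower stayed at 8 and 7 of 8.

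The rest of the GTPase families was mostly near the detection limit, with 3 of 7 other GBPs, 3 of 12 other IRGs and 2 of 6 measured other interferon-induced GTPases at a mean FPKM of at least 1. *Gbp4* stood at 1.45, 2.56 and 21.9 FPKM in WT, at 0.655, 0.516 and 1.28 in M-Shp2-/- and at 3.20, 0.867 and 3.67 in SHP099. *Gm12250*, an IRG effector gene, stood at 9.52, 16.3 and 77.1 FPKM in WT, at 3.31, 4.01 and 7.59 in M-Shp2-/- and at 8.75, 4.71 and 15.5 in SHP099. Both had their M-Shp2-/- libraries below all WT libraries, and their log2 fold changes against WT were -1.71 (SE 0.79, adjusted p 0.478 by limma) and -2.09 (SE 0.72, 0.465), or -0.73 and -1.24 without WT replicate 3.

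*Gbp6* and *Gbp9* had log2 fold changes of -0.99 and -0.92 in M-Shp2-/- against WT, and -0.04 and -0.32 in SHP099 against WT. They had -0.40 and -0.33 in M-Shp2-/- without WT replicate 3 and, with the sign turned, 0.55 and 0.27 in SHP099. *Mx1* and *Mx2*, antiviral GTPases of the type I interferon response, had -1.02 and -1.21 against WT in M-Shp2-/- and -0.88 and -1.07 in SHP099, and -0.14 and -0.14 between M-Shp2-/- and SHP099. The values against WT shrank without WT replicate 3 to -0.33 and -0.46 in M-Shp2-/- and to -0.19 and -0.32 in SHP099. *Irgq*, a distant IRG homologue, stood between 4.58 and 6.48 FPKM in all 9 libraries, with log2 fold changes of -0.02 and 0.06 against WT, the second of which turned negative under median-of-ratios scaling and, at -0.04, without WT replicate 3. The IRG gene *9930111J21Rik2* had -0.28 and -0.16, or 0.03 and 0.15 without that library. None of these 8 genes reached an adjusted p of 0.05 in any of the 3 comparisons by limma.

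Upstream of the GTPases, *Ifng*, the cytokine that induces them, stood at 5.06, 11.9 and 38.8 FPKM in WT, at 0.701, 1.35 and 2.21 in M-Shp2-/- and at 0.460, 1.01 and 4.34 in SHP099. All WT libraries lay above all libraries of both other groups. The log2 fold change was -2.64 (SE 0.65, adjusted p 0.424 by limma) in M-Shp2-/- and -2.54 (SE 0.73, 0.0819) in SHP099, while M-Shp2-/- against SHP099 was -0.10 (SE 0.50, 0.948). The values against WT were -1.92 (0.583) and -1.82 (0.107) without WT replicate 3. *Ifnb1* was at 0 in 7 libraries and at most 0.0314 FPKM in the others. The receptor genes *Ifngr1*, *Ifngr2*, *Ifnar1* and *Ifnar2* were expressed at 57.7 to 137 FPKM in all libraries. *Ifngr1* had the largest difference among them, 0.68 in SHP099 against WT (SE 0.19, adjusted p 0.0719), and 0.08 in M-Shp2-/-. Without WT replicate 3 the SHP099 value was 0.87 (0.0188).

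*Irf1*, an interferon-induced factor that acts at ISREs, stood at 249, 286 and 1062 FPKM in WT, at 190.3, 239 and 341 in M-Shp2-/- and at 561, 511 and 673 in SHP099. All SHP099 libraries lay above all M-Shp2-/- libraries. The log2 fold change between M-Shp2-/- and SHP099 was -1.21 (SE 0.22, adjusted p 0.185 by limma). Against WT, *Irf1* in M-Shp2-/- was at -0.76 (adjusted p 0.556), and at -0.10 (0.961) without WT replicate 3, and in SHP099 it was at 0.45 (0.627), and at 1.11 (0.0118) without that library.

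The factors of the type I response had values below WT in both groups, by less without WT replicate 3. *Stat2* had log2 fold changes of -1.07 and -0.96 in M-Shp2-/- and SHP099 against WT, *Irf9* of -0.75 and -0.56 and *Irf7* of -1.94 and -1.06. *Irf8*, a macrophage lineage factor, had -0.87 and -0.57. Without WT replicate 3 the values were -0.67 and -0.56 for *Stat2*, -0.58 and -0.38 for *Irf9* and -1.32 and -0.45 for *Irf7*, and *Irf8* was at -0.21 in M-Shp2-/- and turned to 0.09 in SHP099. None of the 4 reached an adjusted p of 0.05 by limma in any comparison. Over the lists, 1 of 11 receptor and JAK-STAT genes passed it in SHP099 against WT (*Jak2*, -0.57, adjusted p 0.0485) and 1 of 11 transcription factors (*Batf*, -0.73, 0.0149), both lower, against 2.41% of all genes, and 0 of each in the other comparisons, where 4 and 2 had an unadjusted p under 0.05 in M-Shp2-/- against WT (10.5% of all genes) and 2 and 3 in M-Shp2-/- against SHP099 (12.6%). *Jak2* did not pass under median-of-ratios scaling (0.0502) or with any 1 of the 6 libraries left out (0.0519 to 0.192). *Batf* did not pass without SHP099 replicate 1, 2 or 3 (0.0676, 0.0843 and 0.0615), and without WT replicate 3 *Irf1* and *Irf2* (0.42, 0.0321) passed beside it, both higher.

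**Figure D3:**
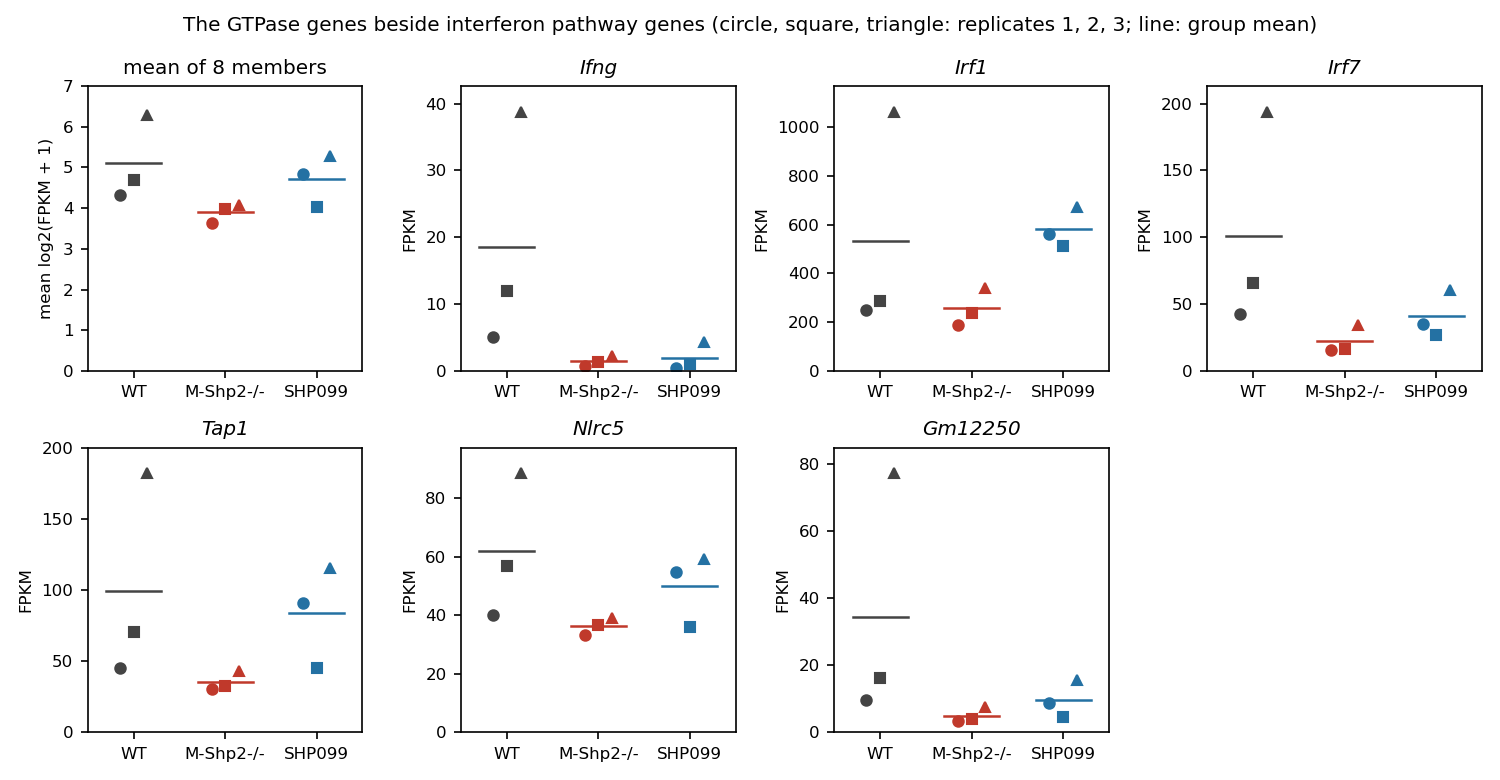
Mean log2(FPKM + 1) of the 8 tested GTPase genes and FPKM of 6 interferon pathway genes (y axes, linear, from 0) in the 3 WT, 3 M-Shp2-/- and 3 SHP099 libraries; symbols are replicates and lines are group means. The GTPase mean runs from 3.63 to 6.29; the group means of the GTPases, Irf1, Tap1 and Nlrc5 are higher in SHP099 than in M-Shp2-/-, with libraries that overlap for the GTPase mean and Nlrc5, whereas Ifng is low in both groups.

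Among negative regulators of interferon signalling, *Cish* fell by 2.39 (adjusted p 0.00846) and *Socs3* by 1.57 (0.0157) on the log2 scale in SHP099 against WT, by limma, the 2 of 11 genes that passed 0.05 there, against 2.41% of all genes that passed as lower. The count was 3 under median-of-ratios scaling, 5 without WT replicate 3, and 1 without SHP099 replicate 1 or 2. The *Cish* and *Socs3* values were -2.42 and -1.34 without WT replicate 3. In M-Shp2-/- the genes had -1.60 and -1.28 against WT, or -1.62 and -1.06 without that library. The deleted *Ptpn11* was the 1 of 11 that passed against WT (-1.19, adjusted p 0.0168 by limma, 0.0873% of all genes) and against SHP099 (-1.13, 0.0109, 0.0699%). Against WT none of the 11 passed without M-Shp2-/- replicate 1 or 2 (lowest adjusted p 0.196 and 0.151) or WT replicate 1 or 2 (0.105 and 0.125). Against SHP099 none passed without M-Shp2-/- replicate 1 or 2 or any 1 SHP099 library (0.0534 to 0.115). Without M-Shp2-/- replicate 3, 2 passed there as higher and 2 as lower, against 19.9% of all genes.

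Interferon-gamma type targets other than the GTPases gave lists of the same sign. Of 24 tested, 23 had lower values in M-Shp2-/- than in WT (median -0.71), 17 in SHP099 than in WT (median -0.09) and 20 in M-Shp2-/- than in SHP099 (median -0.35). At an adjusted p of 0.05 by limma, 0 passed in M-Shp2-/- against WT, 1 in SHP099 against WT (*Cd40*, -1.29, 0.0346; 2.41% of all genes passed as lower) and 0 in M-Shp2-/- against SHP099. At an unadjusted p under 0.05 by limma the counts were 12, 5 and 11, against 10.5%, 26.7% and 12.6% of all genes, shares that count both directions. All libraries of the group named first lay below all of the other for 11, 3 and 8 of 24, against 3.07%, 6.77% and 9.76% of genes. They lay above for 0, 0 and 0, against 16.0%, 27.9% and 7.9%. Without WT replicate 3, 21 of 24 had lower values in M-Shp2-/- (median -0.41) and 10 of 24 in SHP099 (median 0.12). *Cd40* did not pass in that fit (0.0535), nor without SHP099 replicate 1, 2 or 3 (0.126, 0.156 and 0.0658) or WT replicate 1 (0.074). In SHP099 without WT replicate 3, *Irf1*, higher, and *Socs1*, lower (-1.37, 0.0393), passed. Between M-Shp2-/- and SHP099, 8 of 24 passed as lower and 1 as higher without M-Shp2-/- replicate 3, against 19.9% of all genes.

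Type I interferon targets had lower values in both groups: 33 of 33 in M-Shp2-/- (median -1.19) and 33 of 33 in SHP099 (median -0.81) against WT, and 30 of 33 in M-Shp2-/- against SHP099 (median -0.28). None passed an adjusted p of 0.05 by limma. At an unadjusted p under 0.05 the counts were 21, 10 and 6, against 10.5%, 26.7% and 12.6% of all genes, shares that count both directions. All libraries of the group named first lay below all of the other for 20, 7 and 5 of 33, against 3.07%, 6.77% and 9.76% of genes. *Oasl1*, an oligoadenylate synthetase-like gene, had -2.10 and -1.82 against WT, and *Rtp4* had -2.01 in M-Shp2-/-. Without WT replicate 3 the medians were -0.67 and -0.31, and 33 and 29 genes had lower values. *Oasl1* had -1.46 in M-Shp2-/- and -1.18 in SHP099 (adjusted p 0.0377 by limma), and *Rtp4* had -1.43 in M-Shp2-/-. In SHP099 against WT 2 of 33 passed 0.05 without WT replicate 3 and 3 without WT replicate 1. All were lower, beside 466 and 151 of 11450 genes that passed as lower. Between M-Shp2-/- and SHP099, 5 of 33 passed as lower without M-Shp2-/- replicate 3, against 19.9% of all genes. The lists were not tested as sets.

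**Figure D4:**
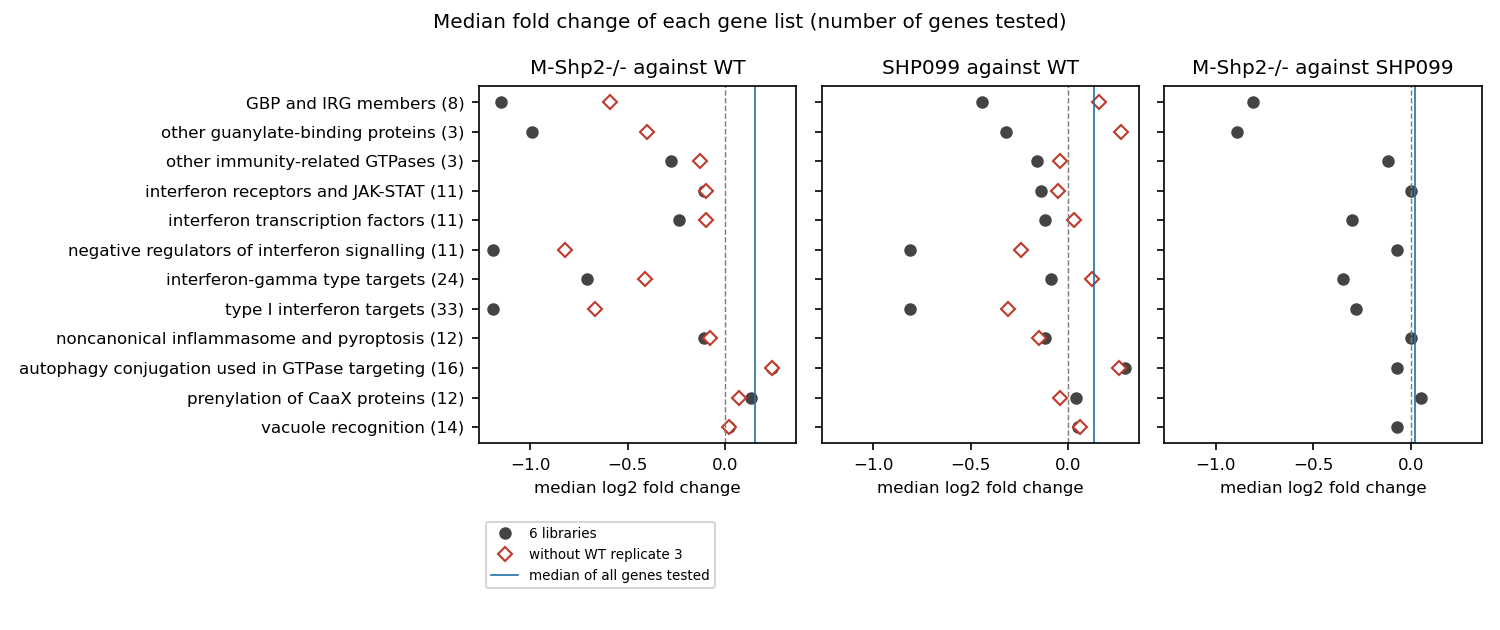
Median log2 fold change (x axis) of each gene list (y axis, number of tested genes in brackets) in the 3 comparisons; filled points are fits on 6 libraries, diamonds are fits without WT replicate 3, and the blue line is the median of all genes tested. In SHP099 against WT the GTPases (-0.44) and interferon-gamma type targets (-0.09) lie nearer to 0 than type I targets (-0.81), and without WT replicate 3 the GTPase median is 0.16.

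The 5 genes outside the GTPase families that were most like the members over the 9 libraries were *Serpina3f*, *Nlrc5*, *Tap1*, *Inpp5b* and *Batf2*, with Pearson's r of 0.98, 0.98, 0.97, 0.97 and 0.97 to the mean of the z-scored members. Their Spearman's rho was 0.93 to 0.98, and r was 0.86 to 0.95 without WT replicate 3 and SHP099 replicate 3. *Tap1*, the peptide transporter of antigen presentation, stood at 45.7, 70.8 and 182 FPKM in WT, at 30.7, 33.0 and 43.0 in M-Shp2-/- and at 91.0, 45.3 and 116 in SHP099. *Nlrc5*, the activator of MHC class I genes, stood at 40.1, 57.0 and 88.5 FPKM in WT, at 33.3, 36.6 and 39.1 in M-Shp2-/- and at 55.0, 36.0 and 59.4 in SHP099. For both genes SHP099 replicates 1 and 3 lay above WT replicate 1 and above all M-Shp2-/- libraries. SHP099 replicate 2 lay below all WT libraries for both genes, narrowly for *Tap1*, and within the M-Shp2-/- range for *Nlrc5*. *Irf7* had an r of 0.93, *Irf1* of 0.85 and *Ifng* of 0.78, and for *Irf1* and *Ifng* r was 0.52 and 0.39 without the same pair of libraries. The libraries share groups and a scale, so these r describe the 9 libraries only.

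Genes of the machinery that the GTPases work with were followed as well. Of 16 genes of autophagy conjugation and its partners, which direct GBPs and IRGs to vacuoles, 5 rose in SHP099 against WT at an adjusted p of 0.05 by limma, against 4.55% of all genes, and 0 fell. They were *Sqstm1* (1.03, 0.0206), *Ulk1* (0.86, 0.0142), *Gabarapl1* (0.62, 0.0177), *Map1lc3a* (0.60, 0.0395) and *Map1lc3b* (0.40, 0.0301). All 5 calls were lost under median-of-ratios scaling, where their log2 fold changes were 0.25 to 0.88 with adjusted p-values of 0.0505 to 0.276 and 1.5% of all genes passed as higher. Without SHP099 replicate 1, 2 or 3 the counts were 0, 0 and 1 of 16, and without WT replicate 1, 2 or 3 they were 2, 3 and 6. The median of the 16 genes in SHP099 was 0.29 beside 0.13 over all genes, with 1 of 16 lower, or 0.15 beside -0.01 with 4 of 16 lower under median-of-ratios scaling. *Sqstm1*, the ubiquitin receptor p62, stood at 2290.0, 2043 and 2994 FPKM in WT, at 2427, 2451 and 5879 in M-Shp2-/- and at 5048, 5257 and 4519 in SHP099. The high M-Shp2-/- library was replicate 3. In M-Shp2-/- 0 of 16 passed against WT (3 at an unadjusted p under 0.05), with a median of 0.24 beside 0.15 over all genes, or 0.07 beside -0.01 under median-of-ratios scaling.

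Of 12 genes for prenylation of proteins such as *Gbp2* and *Gbp5*, *Icmt*, the methyltransferase of prenylated cysteines, rose in SHP099 against WT (0.52, adjusted p 0.0351 by limma), and of 14 genes for vacuole recognition the autophagy receptor gene *Calcoco1* rose (0.99, 0.0258). A single gene in each list is near the share of all genes that passed, 6.96%, and both calls were lost under median-of-ratios scaling (0.0868 and 0.0694) and without any 1 library other than WT replicate 3. In the vacuole list *Traf6* passed instead under that scaling (-0.45, 0.0442), and *Traf6* (-0.39, 0.0422), *Optn* (0.48, 0.0188) and *Calcoco1* passed without WT replicate 3. The list medians in SHP099 were 0.04 and 0.05 beside 0.13 over all genes, and under that scaling 8 of 12 and 11 of 14 genes had lower values. None passed in the other comparisons. Of 12 tested genes of the pyroptosis pathway that GBPs engage, *Il1b* fell by 2.48 in M-Shp2-/- (adjusted p 0.00781) and by 4.25 in SHP099 (0.00846) against WT, and *Il18* fell by 1.61 in SHP099 (0.0133), where 0.0873% and 6.96% of all genes passed. In M-Shp2-/- *Il1b* did not pass without M-Shp2-/- replicate 1 or 2 (0.0952 and 0.0856) or WT replicate 1 or 2 (0.0547 and 0.0724). In SHP099 *Il18* did not pass without SHP099 replicate 1, 2 or 3 (0.0541, 0.0611 and 0.0537), and *Il1b* passed without each library. *Casp4*, the mouse gene for caspase-11, had -0.36 and 0.01 against WT (adjusted p 0.483 and 0.986), beside a median of -0.11 and -0.12 over the 12 genes.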

How the data were processed

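Libraries were grouped by their titles. The authors aligned reads with HISAT2 2.0.4 and counted them with HTSeq 0.9.1 (submitters' processing notes) and deposited them as FPKM in a single table with a column for each library. The tool that made FPKM, the build, the annotation and the strand setting are not given in the sources used here. A second deposited table without measurements was not used.

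Genes were matched by identifier to GENCODE M21 (GRCm38), and 353 of 54059 were not matched. Per library, FPKM times the mean transcript length came out as whole multiples of one unit for 96.3% to 96.7% of values of up to 50 reads (tolerance 0.05 reads), which gave the reads per library and a floor of 3 reads.

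The test used log2(FPKM + 1) of 11450 genes whose FPKM averaged 1 or more, so fold changes of low genes are understated. Each comparison used its 6 libraries in limma 3.58.1 (lmFit, eBayes with trend; R 4.3.3) with Benjamini-Hochberg adjustment over all genes. A gene was called when its adjusted p was 0.005 or less and its log2 fold change was 1 or more in size, and an adjusted p of 0.05 was a second rule. The script was tested on simulated data. The 2 comparisons with WT share its libraries. The members and lists were chosen with earlier results of these data known. Named were all members, the expressed relatives, core interferon genes, list genes past 0.05 (otherwise the 2 largest changes) and the 5 most similar genes. The rule for list genes was not carried through for *Il27*, an interferon ligand list gene, and for some cell marker genes. In SHP099 against WT, 1 dendritic cell marker (adjusted p 0.0192 by limma) and 1 B cell marker (0.0346) passed 0.05, both lower. One core interferon gene is not reported here. Alternatives covered the pseudocount, filter, scaling, test, block and left-out libraries.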

Additional observations from a re-analysis of the deposited data

How the results depend on the processing

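No member was called in any of the 3 comparisons under any alternative run: another pseudocount (0.1 or 5), no filter or a mean FPKM of at least 5, equal sums, median-of-ratios or quantile scaling, no variance trend, one fit of all libraries, the replicate block, voom on recovered reads, each library left out, or, added after the data were seen, one fit of all libraries but WT replicate 3. Of 429 recomputed member values, 418 kept their direction. The 11 that reversed were all in SHP099 against WT: *Iigp1* with voom (0.07); *Gbp3* (0.15) and *Iigp1* (0.49) without SHP099 replicate 2; and, without WT replicate 3 in the fit of 5 libraries and in that of 8 alike, *Gbp3* (0.45), *Gbp5* (0.18), *Irgm1* (0.14) and *Iigp1* (0.86). With a library left out, the values of these genes ran from -0.45 to 0.45 (*Gbp3*), -0.72 to 0.18 (*Gbp5*), -0.99 to 0.14 (*Irgm1*) and -0.97 to 0.86 (*Iigp1*), and the median log2 fold change of the members ran from -1.50 to -0.59 for M-Shp2-/- against WT, from -0.94 (without WT replicate 1) to 0.16 (without WT replicate 3) for SHP099 against WT, where it was -0.69 without WT replicate 2, -0.73 without SHP099 replicate 3 and -0.11 without SHP099 replicate 2, and from -1.09 to -0.53 for M-Shp2-/- against SHP099. Same-numbered libraries did not deviate together consistently. Their correlations ran from -0.431 to 0.492, with 0.492 for replicate 1 of M-Shp2-/- and WT and 0.454 for replicate 3 of SHP099 and WT. The replicate block was therefore an alternative only. With the block 0 members were called, the medians stayed at -1.15, -0.44 and -0.81, and the lowest adjusted p by limma was 0.214, 0.0821 and 0.288. On recovered reads, voom called 1, 9 and 0 genes of 11353. Calls outside the members, examined this way after the data were seen, depended on single libraries: 797 genes passed an adjusted p of 0.05 in SHP099 against WT, but 90, 47 and 116 did without SHP099 replicate 1, 2 or 3, and 284, 399 and 1273 without WT replicate 1, 2 or 3, while 8 passed in M-Shp2-/- against SHP099, but 2277 without M-Shp2-/- replicate 3. Depth limits *Ifi47* and *Tgtp2*, and 3 libraries a group limit the rest.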

Other observations

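M-Shp2-/- replicate 3 differed from the other M-Shp2-/- libraries in genes outside the GTPase families. *Mrc1*, the mannose receptor, stood at 59.8, 71.2 and 19.4 FPKM in M-Shp2-/- replicates 1, 2 and 3, beside 43.5 to 61.5 in WT and 9.79 to 10.3 in SHP099, where it fell by 2.18 on the log2 scale (adjusted p 0.00289, limma). *Msr1*, a scavenger receptor, fell by 1.11 (0.0129) and *Csf1r*, the receptor of macrophage colony-stimulating factor, rose by 1.38 (0.0222) in SHP099 against WT. The *Csf1r* call was lost under median-of-ratios scaling (0.0628) and without SHP099 replicate 1, 2 or 3 (0.076, 0.116 and 0.0774), and that of *Msr1* without SHP099 replicate 1 or 2 (0.0551 and 0.0537). The same M-Shp2-/- library held the highest immunoglobulin *Ighm* (175 FPKM, against 5.97 to 44.9 elsewhere) and *Col1a1* (206 FPKM, against 10.0 to 166). The summed GTPases were 224, 301 and 316 FPKM in M-Shp2-/- replicates 1, 2 and 3, so this library was the highest of its group.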
